A study of Mus musculus with 6 samples.

Results

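Transmitter and structural genes of enteric neurons were followed across the 6 libraries of a mouse intestine RNA-seq series. The 35 genes were taken by symbol from a fixed list, and all 35 are among the 32219 genes of the deposited table. They cover neuronal RNA-binding and cytoskeletal proteins, synaptic vesicle proteins, the acetylcholine pathway, nitric oxide and catecholamine enzymes, neuropeptides, calcium-binding proteins and lineage regulators. The libraries comprise 3 labelled KO and 3 labelled WT. Per the labels, all came from intestine with epithelial cells, immune cells and enteric neurons, and the design text names the whole duodenum. The sources used here do not name the knocked-out gene, the strain, age or sex of the mice, or any driver of the deletion. Nothing says that each library is a separate animal, so a p-value here reflects library-to-library spread, some of which may be technical.

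The enteric nervous system lies in the gut wall as a myenteric plexus between the muscle layers and a submucosal plexus beneath the mucosa. Its neurons derive from neural crest cells that depend on the receptor RET and on transcription factors such as PHOX2A and HAND2. Excitatory motor neurons release acetylcholine and tachykinins onto smooth muscle, inhibitory motor neurons release nitric oxide and vasoactive intestinal peptide, and secretomotor neurons act on the epithelium. Several of these genes are also expressed outside neurons, for instance synaptic vesicle genes in enteroendocrine cells and Hand2 in gut mesenchyme.

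The values are given as deposited and are taken as log2(abundance + 1), while the abundance unit is not stated. Levels of different genes are therefore not compared, and the depth of the libraries is unknown. KO 1 holds values on chromosomes 1 and 10 to 18 and on the start of chromosome 19 only. On the other chromosomes every gene above 1 on average elsewhere was listed at 0, and those zeros are treated as missing. Where KO 1 has values they were higher by a factor of 2.12, and rescaled values of KO 1 are its linear values divided by that factor. KO was therefore compared with WT on 5 libraries, KO 2 and KO 3 against WT 1, WT 2 and WT 3, and KO 1 is given beside them for the 13 neuronal genes that it covers. Ffar3, which encodes GPR41, and Dhx9, the genes that the series title names, were both present in KO: Dhx9 was at 6.17 in KO 2 and 6.08 in KO 3, against 5.94, 6.01 and 5.97 in WT 1, WT 2 and WT 3, and Ffar3 was at 0.35 in KO 2 and 0.59 in KO 3, against 0.60, 0.18 and 0.46. Of the gut segment markers that KO 1 covers, the 2 distal ones, Fabp6, the ileal bile acid binding protein, and Hoxb9, had summed linear levels of 14.2 in KO 1 after rescaling, against 303 to 448 in the other 5 libraries, and the 4 proximal ones, Gata4, Lct, Onecut2 and Gip, had 182 in KO 1, against 1.75 to 4.53 in the others. Fabp6 stood at 3.91 in KO 1, against 8.16 to 8.76, while Hoxa9, a distal marker that KO 1 does not cover, was at 0.30 to 0.53 in the other 5. For those 5 libraries the levels of Fabp6 and of the 4 proximal markers go against the duodenum of the design text.

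None of the neuronal genes passed between KO and WT. Of the 35, 34 were above 0 in at least 2 of the 5 libraries and were tested, and Calca was not, being listed at 0 in all but WT 2, where it was at 0.07. By limma with Benjamini-Hochberg adjustment over all 23408 genes tested, 0 of 34 had an adjusted p under 0.05, where 0.00427% of all genes tested did (1 gene, Gm49380), and the adjusted p of each of the 34 was 0.99997. At an unadjusted p under 0.05 there was 1 of 34, Nmu, which was lower in KO, where 2.41% of all genes had such a p, 1.73% being higher and 0.688% lower in KO. The mean was higher in KO for 19 and lower for 15, with a median log2 difference of 0.02 and a range from -0.40 to 0.22, where 60.8% of all genes were higher in KO with a median of 0.02. Groups did not overlap for 3 genes, with both KO libraries above all WT for Elavl3 (9.76% of all genes) and below all WT for Nmu and Nefl (3.55% of all genes). The count of genes higher in KO was 12 of 34 after median centring or quantile normalization, 2 without KO 3, 30 without KO 2 and 10 without WT 1.

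**Figure D1:**
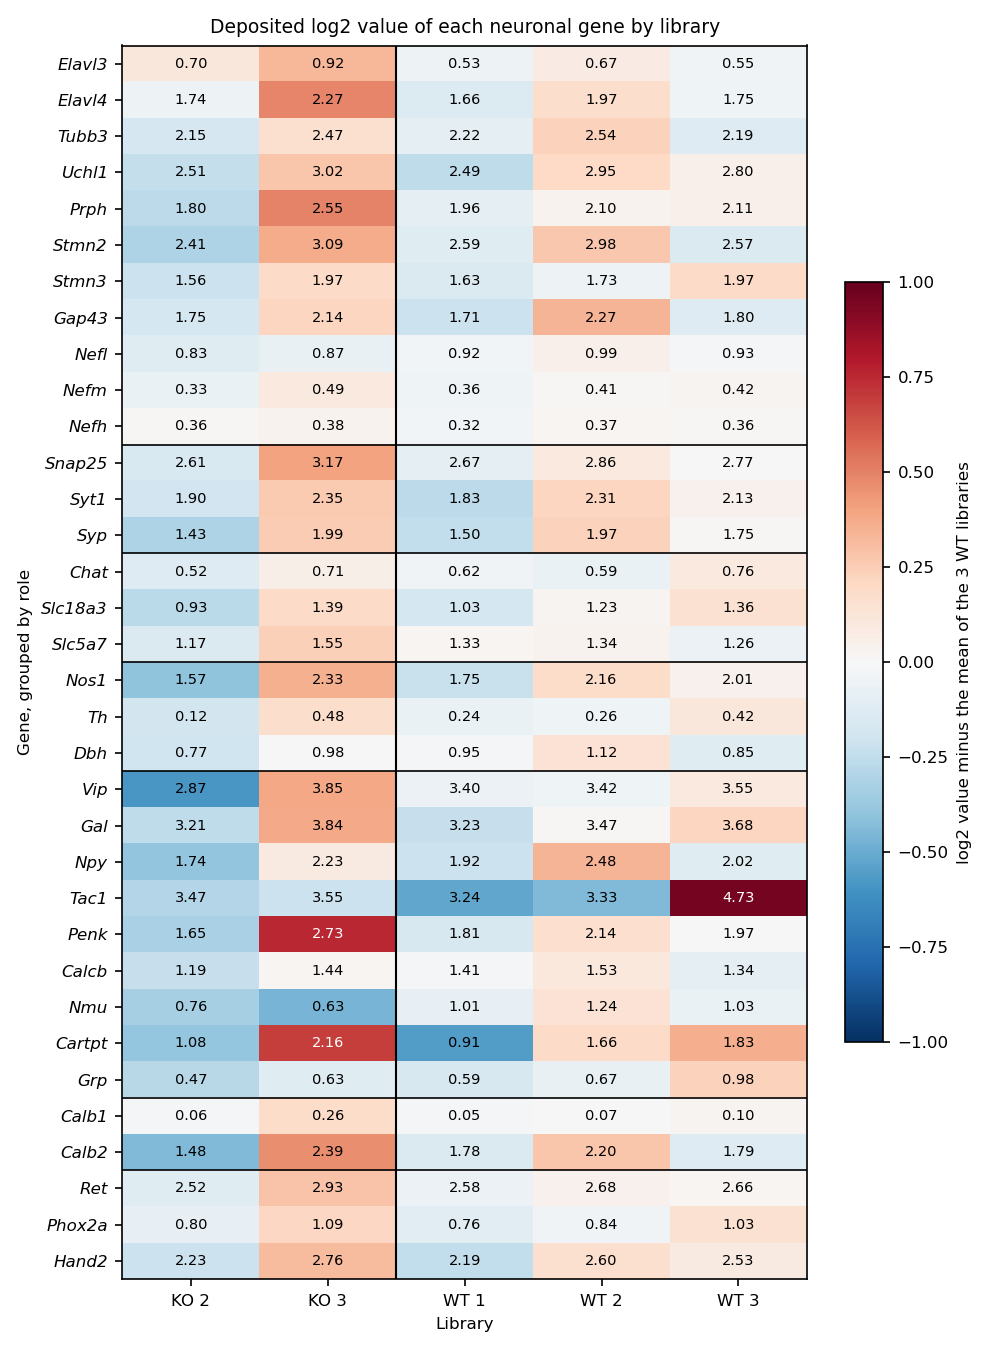
Deposited log2 values (numbers) of the 34 neuronal genes tested in KO 2, KO 3 and the 3 WT libraries, with colour for the difference from the mean of the WT libraries; black lines separate roles and groups. The KO 3 column is mostly above the WT mean and the KO 2 column mostly below it, while Nmu is below it in both.

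What the neuronal genes shared was the order of the libraries within each group. KO 3 was above KO 2 for 33 of 34, by a median of 0.41 on the log2 scale, where 47.9% of all genes tested were higher in KO 3. WT 2 was above WT 1 for 33 of 34 as well, where 57.9% of all genes were. KO 3 was the highest of the 5 libraries for 23 of 34 (26.0% of all genes), and KO 2 was the lowest for 22 of 34 (12.0% of all genes). KO 3 stayed above KO 2 for 33 of 34 after median centring, where 63.4% of all genes were, and after quantile normalization, where 52.5% were, while WT 2 was above WT 1 for 20 of 34 after centring, where 32.7% of all genes were, and for 26 of 34 after quantile normalization, where 48.7% were. The median of the neuronal genes relative to the WT mean was -0.21 in KO 2 and 0.23 in KO 3, against -0.12, 0.09 and 0.02 in WT 1, WT 2 and WT 3. The 2 KO libraries thus stand on either side of the 3 WT libraries, and a KO mean near the WT mean joins a low and a high library. In whole-tissue RNA, fewer neurons and less RNA per neuron cannot be told apart.

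Smooth muscle markers, from the muscle layers between which the myenteric plexus lies, also had KO 2 and WT 1 low and KO 3 and WT 2 high. The libraries at the ends differed. Of the 10 markers, WT 1 was the lowest library for 7 and WT 2 the highest for 7. Over all 23408 genes tested these counts were 5145 and 5031. For most neuronal genes KO 2 was the lowest and KO 3 the highest. The median of the 10 markers relative to the WT mean was -0.23 in KO 2 and 0.15 in KO 3, against -0.25, 0.20 and 0.01 in WT 1, WT 2 and WT 3, and KO 3 was above KO 2 for 10 of 10. Their summed linear level was 1222 in KO 2 and 1638 in KO 3, against 1179, 1588 and 1506 in WT 1, WT 2 and WT 3, and none was at 0. The 5 markers of interstitial cells of Cajal, the pacemaker cells of the muscle layers, were higher in KO 3 than in KO 2 for 5 of 5. Their median was -0.0012 in KO 2 and 0.16 in KO 3, against -0.10, 0.20 and -0.16 in WT 1, WT 2 and WT 3. Their summed level was 41.3 in KO 2 and 47.9 in KO 3, against 39.9, 50.1 and 37.5 in WT 1, WT 2 and WT 3, with none at 0.

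In other cell types KO 3 was above KO 2 for 9 of 12 glia, 8 of 10 epithelial, 10 of 15 enteroendocrine, 3 of 9 fibroblast and 0 of 8 immune markers, and no marker was at 0 in any of the 5 libraries. The median of the glia markers was -0.10 in KO 2 and -0.05 in KO 3, against -0.06, 0.11 and -0.07 in WT 1, WT 2 and WT 3. Their summed level was 70.0 in KO 2 and 87.5 in KO 3, against 79.3, 73.8 and 66.6 in WT 1, WT 2 and WT 3. Erbb3 alone made up the larger part of this glia sum in each library. It stood at 5.87 in KO 2 and 6.24 in KO 3, against 6.07, 5.84 and 5.76 in WT 1, WT 2 and WT 3. The glia sum thus mostly follows this 1 gene. The median of the epithelial markers was -0.05 in KO 2 and 0.11 in KO 3, against 0.10, -0.16 and 0.06 in WT 1, WT 2 and WT 3. Their summed level was 4526 in KO 2 and 4749 in KO 3, against 5162, 4384 and 4829 in WT 1, WT 2 and WT 3, with WT 2 the lowest. Muc2 alone, at 11.42 to 11.67 on the log2 scale, made up the larger part of this sum in each library. The enteroendocrine markers, from hormone cells that share vesicle genes with neurons, had a median of 0.09 in KO 2 and 0.15 in KO 3, against -0.01, 0.05 and 0.01 in WT 1, WT 2 and WT 3. Their summed level was 122 in KO 2 and 115 in KO 3, against 116, 109 and 114 in WT 1, WT 2 and WT 3.

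The median of the fibroblast markers was -0.21 in KO 2 and -0.26 in KO 3, against -0.18, 0.34 and -0.13 in WT 1, WT 2 and WT 3. Their summed level was 573 in KO 2 and 633 in KO 3, against 621, 828 and 686 in WT 1, WT 2 and WT 3, and WT 2 was the highest. The median of the immune markers was 0.86 in KO 2 and -0.30 in KO 3, against -0.17, 0.53 and -0.37 in WT 1, WT 2 and WT 3. Their summed level was 99.8 in KO 2 and 30.2 in KO 3, against 34.9, 75.9 and 26.2 in WT 1, WT 2 and WT 3. KO 2, the lowest library for most neuronal genes, was the highest in summed immune markers, while WT 2 was above the WT mean in both. The part of these cell types in the neuronal values was not tested.

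**Figure D2:**
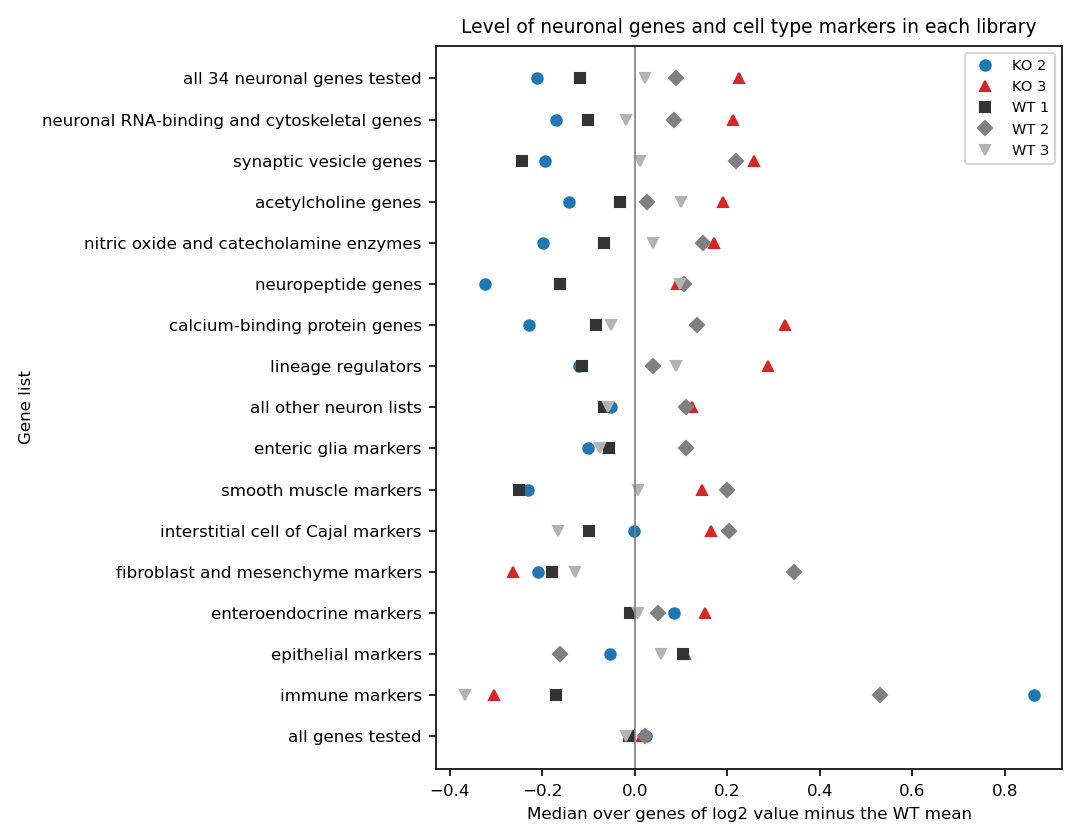
Median over the genes of each list of the log2 value minus the WT mean, for KO 2, KO 3, WT 1, WT 2 and WT 3. Over the 34 neuronal genes KO 2 is at -0.21 and KO 3 at 0.23 with the WT libraries between them, and smooth muscle markers have KO 2 and WT 1 low and KO 3 and WT 2 high.

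Among the 11 neuronal RNA-binding and cytoskeletal genes, 8 were higher and 3 lower in KO, with a median log2 difference of 0.02. Elavl3, which encodes the neuronal RNA-binding protein HuC, stood at 0.70 in KO 2 and 0.92 in KO 3, against 0.53, 0.67 and 0.55 in WT 1, WT 2 and WT 3. Both KO libraries were above all WT libraries, by little in KO 2, with a log2 difference of 0.22 ± 0.10 (SE, n = 2 KO and 3 WT, limma adjusted p = 0.99997). Its exons overlap those of Gm49318 on the same strand, so reads cannot be assigned with certainty. Elavl4, which encodes HuD of the same family, stood at 1.74 in KO 2 and 2.27 in KO 3, against 1.66, 1.97 and 1.75 in WT 1, WT 2 and WT 3. It was highest in KO 3 while KO 2 lay within the WT range, and the difference was 0.22 ± 0.22 (SE, limma adjusted p = 0.99997). Prph, which encodes peripherin, an intermediate filament of peripheral neurons, stood at 1.80 in KO 2 and 2.55 in KO 3, against 1.96, 2.10 and 2.11 in WT 1, WT 2 and WT 3. KO 3 was the highest and KO 2 the lowest library. Gap43, a growth cone protein gene, stood at 1.75 in KO 2 and 2.14 in KO 3, against 1.71, 2.27 and 1.80 in WT 1, WT 2 and WT 3, and the groups overlapped with WT 2 the highest. The neurofilament subunit genes were low: Nefl, the light subunit, stood at 0.83 in KO 2 and 0.87 in KO 3, against 0.92, 0.99 and 0.93 in WT 1, WT 2 and WT 3. Both KO libraries were below all WT libraries, though KO 3 by less than the WT libraries differed among themselves. Nefm, the medium subunit, stood at 0.33 in KO 2 and 0.49 in KO 3, against 0.36, 0.41 and 0.42 in WT 1, WT 2 and WT 3, and Nefh, the heavy subunit, at 0.36 in KO 2 and 0.38 in KO 3, against 0.32, 0.37 and 0.36 in WT 1, WT 2 and WT 3. The groups overlapped for both. Annotated exons of Nefl and Nefm overlap on opposite strands, and no source used here states the strand setting of the counting. The other genes of this role were Tubb3 (neuronal tubulin), Uchl1 (the deubiquitinase PGP9.5), and Stmn2 and Stmn3 (microtubule regulators). Their groups overlapped, with log2 differences from -0.01 for Stmn3 to 0.03 for Stmn2. Exons of Uchl1 overlap Uchl1os on the opposite strand.

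The synaptic vesicle genes repeated the order of the libraries. Snap25, a SNARE protein gene of vesicle fusion, stood at 2.61 in KO 2 and 3.17 in KO 3, against 2.67, 2.86 and 2.77 in WT 1, WT 2 and WT 3. KO 3 was the highest and KO 2 the lowest, and the log2 difference was 0.12 ± 0.19 (SE, limma adjusted p = 0.99997). Syt1, which encodes the calcium sensor of vesicle release, stood at 1.90 in KO 2 and 2.35 in KO 3, against 1.83, 2.31 and 2.13 in WT 1, WT 2 and WT 3. WT 1 was the lowest and KO 3 the highest, and the difference was 0.03 ± 0.22 (SE, adjusted p = 0.99997 by limma). Syp, a vesicle membrane protein gene, overlapped between the groups with a difference of -0.03, and its exons overlap Gm14703 on the opposite strand.

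The acetylcholine genes gave no separation either. Chat encodes the enzyme that makes acetylcholine, Slc18a3 the transporter that loads it into vesicles, and Slc5a7 the transporter that takes choline back up. Chat (chromosome 14, 32408203 to 32465989, minus strand, GRCm38) spans the whole of Slc18a3 (chromosome 14, 32462438 to 32464850, same strand). Chat stood at 0.52 in KO 2 and 0.71 in KO 3, against 0.62, 0.59 and 0.76 in WT 1, WT 2 and WT 3, with KO 2 the lowest and KO 3 within the WT range. Its log2 difference was -0.04 ± 0.10 (SE, limma adjusted p = 0.99997). Slc18a3 stood at 0.93 in KO 2 and 1.39 in KO 3, against 1.03, 1.23 and 1.36 in WT 1, WT 2 and WT 3. Slc5a7 stood at 1.17 in KO 2 and 1.55 in KO 3, against 1.33, 1.34 and 1.26 in WT 1, WT 2 and WT 3, with a difference of 0.05 ± 0.17 (SE, limma adjusted p = 0.99997). For Slc18a3 and Slc5a7, KO 2 was the lowest library and KO 3 the highest.

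Of the nitric oxide and catecholamine enzymes, 3 of 3 had a lower mean in KO, none beyond the spread of the libraries. Nos1, the neuronal nitric oxide synthase of inhibitory motor neurons, stood at 1.57 in KO 2 and 2.33 in KO 3, against 1.75, 2.16 and 2.01 in WT 1, WT 2 and WT 3. KO 2 was below and KO 3 above every WT library, and the log2 difference was -0.02 ± 0.27 (SE, limma adjusted p = 0.99997). Exons of Nos1 overlap Gm26995 on the opposite strand. Dbh, the enzyme that makes noradrenaline, stood at 0.77 in KO 2 and 0.98 in KO 3, against 0.95, 1.12 and 0.85 in WT 1, WT 2 and WT 3. KO 2 was the lowest library, and the difference was -0.10 ± 0.14 (SE, limma adjusted p = 0.99997). Th, the first enzyme of catecholamine synthesis, was low throughout, between 0.12 and 0.48, with overlapping groups.

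The neuropeptide genes had the widest range of log2 differences of the roles, from -0.40 to 0.22, with 3 higher and 6 lower in KO among the 9 tested. Promoters are shown for Nmu, Vip and Tac1, which represent a gene lower in both KO libraries, a gene that follows the shared order and a gene set apart by 1 WT library. The windows come from RefSeq on GRCm38.p6, from 250 bases before to 50 after the RefSeq start. Capitals mark TGACG on either strand (CGTCA where it lies on the other strand), the core of the cyclic AMP response element. Gene positions in the text are those of GENCODE M21, which starts Tac1 at 7554879. Most of the Tac1 window, with the later of its marked stretches, lies inside the gene so annotated. A window was found for 23 of the 35 genes, and 13 of the 23 hold TGACG in one, where 23.0% of all 27025 genes with a window do. The genes differ in their number of windows, and a match in these letters does not show binding.
Nmu, chr5:76363728-76364027, minus strand: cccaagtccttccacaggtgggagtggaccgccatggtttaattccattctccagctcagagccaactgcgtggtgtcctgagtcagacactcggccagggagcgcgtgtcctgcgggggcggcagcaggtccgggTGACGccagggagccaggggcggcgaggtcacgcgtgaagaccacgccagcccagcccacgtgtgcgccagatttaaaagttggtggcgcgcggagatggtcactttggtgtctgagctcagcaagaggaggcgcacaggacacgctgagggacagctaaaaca
Vip, chr10:5638968-5639267, plus strand: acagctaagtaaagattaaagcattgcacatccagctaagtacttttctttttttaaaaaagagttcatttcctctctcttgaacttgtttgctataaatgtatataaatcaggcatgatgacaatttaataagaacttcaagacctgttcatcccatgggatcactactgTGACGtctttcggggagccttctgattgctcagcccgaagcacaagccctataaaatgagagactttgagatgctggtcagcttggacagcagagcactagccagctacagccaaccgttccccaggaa
Tac1, chr6:7554811-7555110, plus strand: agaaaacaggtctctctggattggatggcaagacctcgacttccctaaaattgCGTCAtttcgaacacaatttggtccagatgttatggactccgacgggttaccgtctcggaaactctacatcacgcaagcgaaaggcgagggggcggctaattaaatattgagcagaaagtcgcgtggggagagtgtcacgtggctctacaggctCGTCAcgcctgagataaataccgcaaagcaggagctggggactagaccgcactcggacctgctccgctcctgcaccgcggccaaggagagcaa

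Nmu, which encodes neuromedin U, a peptide of enteric neurons that acts on smooth muscle and on innate lymphoid cells, lies at chromosome 5, 76333495 to 76363788, minus strand (GRCm38). It stood at 0.76 in KO 2 and 0.63 in KO 3, against 1.01, 1.24 and 1.03 in WT 1, WT 2 and WT 3. Both KO libraries were below all WT libraries, and it was the 1 neuronal gene tested that was lower in KO 3 than in KO 2. The log2 difference was -0.40 ± 0.13 (SE, n = 2 KO and 3 WT), with an unadjusted p of 0.0214 and an adjusted p of 0.99997 by limma, so it did not pass. It was between -0.46 and -0.32 when any 1 library was left out. An exon of 4930432L08Rik overlaps Nmu on the opposite strand. Nmu lies on a chromosome without values in KO 1.

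Vip, the gene of vasoactive intestinal peptide, a relaxant and secretory transmitter, lies at chromosome 10, 5639218 to 5647617, plus strand (GRCm38) and stood at 2.87 in KO 2 and 3.85 in KO 3, against 3.40, 3.42 and 3.55 in WT 1, WT 2 and WT 3. KO 2 was below every WT library and KO 3 above every one, and the KO libraries differed by more than any pair of WT libraries. Gal, the gene of galanin, stood at 3.21 in KO 2 and 3.84 in KO 3, against 3.23, 3.47 and 3.68 in WT 1, WT 2 and WT 3, again with KO 2 the lowest and KO 3 the highest. Cartpt, the gene of the CART peptide, stood at 1.08 in KO 2 and 2.16 in KO 3, against 0.91, 1.66 and 1.83 in WT 1, WT 2 and WT 3. WT 1 and KO 2 were low and KO 3 was high. Grp, the gene of gastrin-releasing peptide, stood at 0.47 in KO 2 and 0.63 in KO 3, against 0.59, 0.67 and 0.98 in WT 1, WT 2 and WT 3. The groups overlapped with WT 3 the highest, and the log2 difference was -0.20 ± 0.14 (SE, limma adjusted p = 0.99997).

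Tac1 and Penk were chosen after their values were seen. Tac1, the precursor gene of substance P and neurokinin A, lies at chromosome 6, 7554879 to 7565834, plus strand (GRCm38) and stood at 3.47 in KO 2 and 3.55 in KO 3, against 3.24, 3.33 and 4.73 in WT 1, WT 2 and WT 3. WT 3 stood alone, and both KO libraries were above WT 1 and WT 2 though the KO mean was below the WT mean. Penk, the precursor gene of the enkephalins, stood at 1.65 in KO 2 and 2.73 in KO 3, against 1.81, 2.14 and 1.97 in WT 1, WT 2 and WT 3. KO 3 was above the rest and KO 2 below all of them, and an exon of A830012C17Rik overlaps the gene on the opposite strand. Npy, which encodes neuropeptide Y, and Calcb, which encodes beta-CGRP, overlapped between the groups, with log2 differences of -0.15 and -0.11. Calca, the gene of calcitonin and alpha-CGRP and a close relative of Calcb, was listed at 0 in KO 2 and KO 3 and in WT 1 and WT 3. Reads could be split between such relatives.

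**Figure D3:**
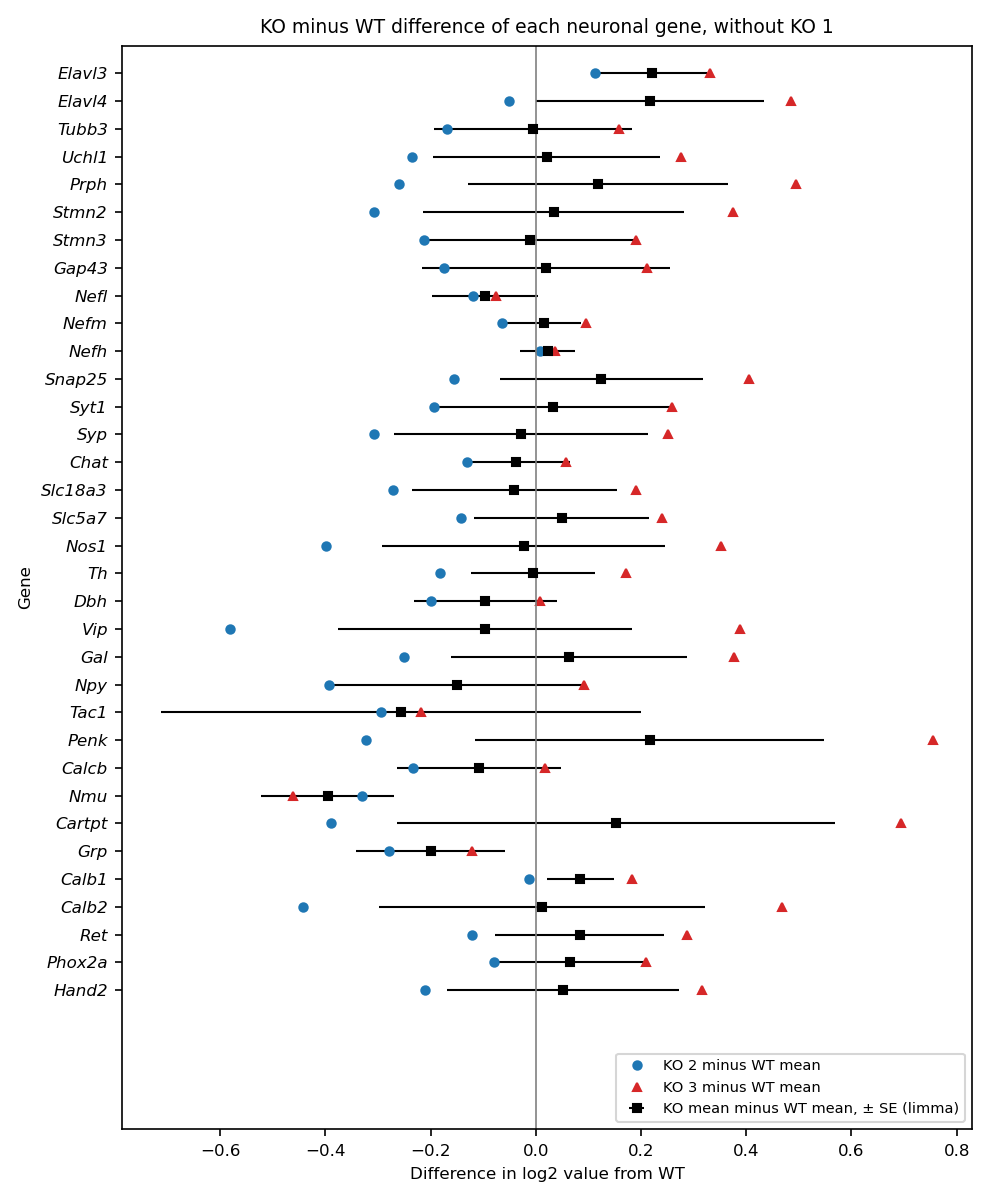
Difference in log2 value from the WT mean for each of the 34 neuronal genes, with squares and bars for the KO mean ± SE by limma, circles for KO 2 and triangles for KO 3. The KO 3 point lies right of the KO 2 point for 33 genes, and for Nmu the order is turned.

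The calcium-binding protein genes mark subsets of enteric neurons. Calb2, the calretinin gene, stood at 1.48 in KO 2 and 2.39 in KO 3, against 1.78, 2.20 and 1.79 in WT 1, WT 2 and WT 3. KO 2 was below and KO 3 above all WT libraries, and the log2 difference was 0.01 ± 0.31 (SE, limma adjusted p = 0.99997). Calb1, the calbindin gene, was close to 0 at 0.06 in KO 2 and 0.26 in KO 3, against 0.05, 0.07 and 0.10 in WT 1, WT 2 and WT 3. It was highest in KO 3, and the difference was 0.08 ± 0.06 (SE, limma adjusted p = 0.99997).

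The lineage regulators were higher in KO on average in 3 of 3, with a median log2 difference of 0.06, and none separated the groups. Ret, the receptor for the GDNF family that enteric precursors need, stood at 2.52 in KO 2 and 2.93 in KO 3, against 2.58, 2.68 and 2.66 in WT 1, WT 2 and WT 3. KO 3 was above the WT range and KO 2 below it, and the difference was 0.08 ± 0.16 (SE, limma adjusted p = 0.99997). Phox2a, a homeobox factor of autonomic neurons, stood at 0.80 in KO 2 and 1.09 in KO 3, against 0.76, 0.84 and 1.03 in WT 1, WT 2 and WT 3. The groups overlapped, and the difference was 0.06 ± 0.14 (SE, limma adjusted p = 0.99997). Its exons overlap those of Inppl1 on the opposite strand. Hand2, a basic helix-loop-helix factor of enteric neurons and gut mesenchyme, overlapped between the groups with a difference of 0.05, and its exons overlap Hand2os1.

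Further genes of enteric neurons and their targets did not pass either. Of 122 genes in 5 lists, 119 were tested and 0 were called by limma, over all genes tested, with 0 at an unadjusted p under 0.05. The median log2 difference was 0.02, with 68 higher and 51 lower in KO. Among 20 further pan-neuronal genes 9 were higher and 11 lower, and the smallest p was that of L1cam, an axonal adhesion protein gene that epithelium can express too, with a difference of 0.14. Among 20 genes of vesicle release 16 were higher and 4 lower (median 0.06), with Cplx1, a complexin gene, at 0.15. Among 22 tested genes of transmitter synthesis and transport 16 were higher and 6 lower (median 0.05), with Chgb, a granin gene of neurons and hormone cells, at 0.25. Slc32a1, the vesicular GABA transporter gene, and Tph2, the neuronal enzyme of serotonin synthesis, were listed at 0 in every library. Among 33 tested receptors and effectors of enteric transmitters 14 were higher and 19 lower (median -0.02), with Galr2, a galanin receptor gene, at -0.26. Among 24 lineage, RET and endothelin pathway genes 13 were higher and 11 lower (median 0.03). There Insm1, a factor of neuroendocrine precursors and hormone cells, was at 0.27, and Artn, the gene of the RET ligand artemin, was at -0.25. In both KO libraries 7 of the 119 genes were above all WT libraries, among them L1cam, Cplx1, Chgb and Insm1, and 3 were below all WT libraries, among them Galr2 and Artn, where 9.76% of all genes tested were above and 3.55% below.

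Across all 5 lists KO 3 was above KO 2 for 94 of 119 genes, where 47.9% of all genes tested were. This was 18 of 20 for the pan-neuronal genes, 18 of 20 for vesicle release, 17 of 22 for transmitter synthesis and transport, 23 of 33 for receptors and effectors and 18 of 24 for the lineage and RET pathway genes. The order of the KO libraries seen in the 34 neuronal genes was thus also present in these lists, which include genes of target cells and hormone cells. It was not particular to neurons, since KO 3 was above KO 2 for 8 of 10 epithelial markers too. After median centring 63.4% of all genes were higher in KO 3, and the 5 lists were not counted that way.

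In KO 1, the 13 neuronal genes that it covers were low. After rescaling, 13 of 13 were below all other libraries, where 37.5% of all 10530 tested genes that KO 1 covers were. They were below all others as deposited too, where 11.9% of covered genes were. Vip stood at 1.12 in KO 1 after rescaling, against 2.87 to 3.85 in the other 5 libraries, and Prph stood at 0.53, against 1.80 to 2.55. Syt1 stood at 0.19, Gap43 at 0.13, Slc18a3 at 0.10, Chat at 0.11 and Cartpt at 0.08. The neurofilament genes stood at 0.05 for Nefl, 0.17 for Nefm and 0.10 for Nefh. Gal, Slc5a7 and Grp, 3 of the 13, were listed at 0, where 11.9% of all tested genes that KO 1 covers were. Gal was the 1 gene at 0 among the 189 genes above 1 on average on the covered start of chromosome 19, while it was at 3.21 or more in every other library. The summed linear level of the 13 genes was 2.27 in KO 1, against 27.6 to 48.8 in the other 5 libraries. The covered markers of smooth muscle were low in KO 1 too, with a summed level over 5 genes of 27.3, against 346.3 to 472.5 in the others, and so were the 2 covered markers of interstitial cells of Cajal, at 2.79 against 10.9 to 14.5. The 6 covered fibroblast markers had a summed level of 159 in KO 1, against 457 to 656.5 in the others. The sum over 8 covered glia markers, 68.0 in KO 1 against 62.6 to 83.2, lay within the range of the others. Erbb3 alone, at 6.07 in KO 1 against 5.76 to 6.24, made up the larger part of this sum in each library. The other covered glia markers were each below all other libraries in KO 1. The median glia marker was lower than its WT mean by a log2 difference of -0.91. The sum over 3 covered immune markers, 21.6 against 20.6 to 61.0, lay within the range of the others. The sum over 7 covered epithelial markers was 1690 in KO 1, against 1455 to 1694, and that over 6 covered enteroendocrine markers was 37.3, against 25.8 to 33.0. Gip, 1 of these 6 and a proximal marker too, stood at 4.02 in KO 1, against 0.27 to 1.22 in the others. Pyy, another of the 6, was lower in KO 1, at 3.57 against 4.23 to 4.64. Chga, Rfx6, Isl1 and Neurog3, the rest of the 6, were above all other libraries in KO 1, as Gip was. Chga stood at 3.17 in KO 1, against 2.42 to 2.73 in the others. Whether the enteroendocrine levels and the proximal genes of KO 1 share a source was not tested. KO 1 also differs from the other libraries in its proximal intestine genes, so genotype, gut segment and cell makeup cannot be told apart for it. With KO 1 added after rescaling and missing where it has no values, 0 of 34 genes passed by limma.

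**Figure D4:**
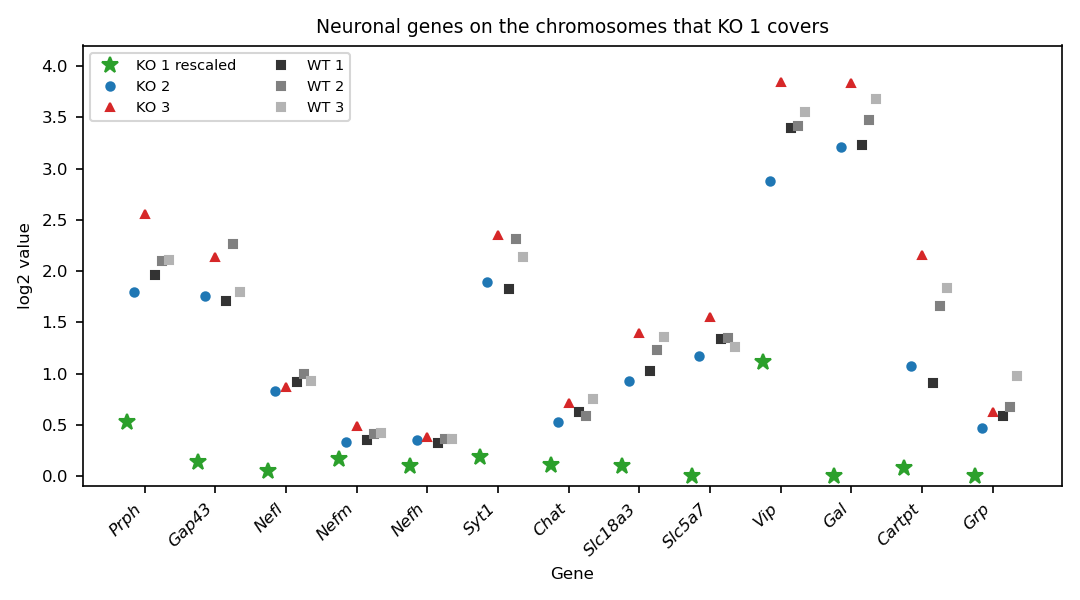
Log2 values of the 13 neuronal genes on the chromosomes that KO 1 covers, with stars for KO 1 after rescaling, a circle for KO 2, a triangle for KO 3 and squares for the WT libraries. KO 1 is the lowest library for 13 of 13 genes, with Gal, Slc5a7 and Grp at 0.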

How the data were processed

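The data are 1 series-wide table deposited by the authors, whose values are taken as log2(abundance + 1). The build is mm10, per the submitters' processing notes, and RNA was poly(A)-selected and made into libraries with a stranded low-input kit, per the labels' protocols. The sources used here state no aligner, counting tool, strand setting, abundance unit, log base or depth, so no counting interval can be given. Of 32245 rows, 26 with a date for a symbol were left out, leaving 32219 genes, of which 31398 were placed with GENCODE M21 (GRCm38, the assembly of mm10). KO 1 was divided by 2.12, the median of its linear values over the 5-library mean in 2160 covered genes at 4 or more.

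KO 2 and KO 3 were compared with WT 1 to WT 3 with limma (version 3.58.1, R 4.3.3) using a trended variance and 2-sided tests over 23408 genes above 0 in at least 2 of 5 libraries, with Benjamini-Hochberg adjustment and a threshold of 0.05. The members, lists and tests were chosen with earlier results of these data known. Values per library are given for the 2 genes of each role with the smallest p and for every gene that KO 1 covers. Of other lists, up to 3 genes with the smallest p could be named. Alternatives were all 6 libraries, KO 1 rescaled, the replicate block, constants of 0.1 and 5, other filters, scalings, variance models, thresholds and log base, and leaving out each library.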

Additional observations from a re-analysis of the deposited data

Results flagged for a closer look

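KO 1 lies outside the main comparison, and proximal intestine genes stood there above all WT libraries after rescaling. Gata4 was at 5.19 in KO 1, against 0.43 to 0.63 in WT. Lct, the lactase gene, was at 7.05 in KO 1, against 1.08 to 2.01 in WT. Gip, a hormone gene of K cells, was at 4.02 in KO 1, against 0.27 to 0.77 in WT. Onecut2 was at 0.55 in KO 1, against 0.12 to 0.42 in WT. No neuronal gene was above the WT libraries in KO 1.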

How the results depend on the processing

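No neuronal gene passed under any setting, nor did any gene of the 5 further lists. Of all genes tested, 1 passed, against 0 with all 6 libraries, KO 1 rescaled, the replicate block, a constant of 0.1, no filter or a mean of at least 1, 59 with each library shifted by the median of the same neuronal genes (chosen after the values were seen, and setting their common level by construction), and 0 to 3 over left-out libraries. The median log2 difference over the neuronal genes, 0.02, was -0.54 with all 6 libraries as deposited, where zeros of KO 1 enter as values, and -0.21 without KO 3 to 0.23 without KO 2; that of the further lists, 0.02, was -0.28 with all 6 and -0.052 to 0.12 over left-out libraries. Over the 13 settings that change more than the variance, threshold, log base or filter, 149 of 182 differences of single genes kept their sign and 33 turned. These counts overstate the stability. The replicate block repeats the differences found without WT 1, and KO 1 rescaled cannot change a gene that KO 1 does not cover. With all 6 libraries the differences that turned were Elavl3 (-0.048), Elavl4 (-0.45), Snap25 (-0.84), Syt1 (-0.55), Slc5a7 (-0.40), Calb2 (-0.63), Ret (-0.83) and Phox2a (-0.25). With KO 1 rescaled they were Syt1 (-0.61) and Slc5a7 (-0.40). Calb2 turned to -0.0088 with a constant of 0.1, and Syt1 and Calb2 turned to -0.012 and -0.032 with centring and to -0.015 and -0.034 with quantile normalization. With the replicate block 10 of 34 neuronal genes were higher in KO, and Syt1 and Calb2 were at -0.098 and -0.060, with 0 neuronal genes called. Over left-out libraries the ranges were -0.19 to 0.26 for Syt1, -0.44 to 0.47 for Calb2, -0.40 to 0.35 for Nos1, -0.13 to 0.057 for Chat, -0.20 to 0.0072 for Dbh, -0.050 to 0.48 for Elavl4, -0.16 to 0.41 for Snap25, -0.14 to 0.24 for Slc5a7, -0.014 to 0.18 for Calb1, -0.12 to 0.29 for Ret and -0.079 to 0.21 for Phox2a. A lone KO library was assumed to vary like the WT libraries. The cause of these changes was not tested. Deviations from the group means of libraries with the same number, over 6450 covered genes with KO 1 rescaled, correlated at 0.26, 0.53 and 0.057. KO 1, which differs from the other libraries in its proximal genes, enters the KO mean. These values therefore cannot decide whether the numbers pair the libraries, and the main comparison used no pairing.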
